A study of Homo sapiens with 9 samples.

Results

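HNF4A, HNF4G, FOXA1, FOXA2, FOXA3, CEBPA, ONECUT1 and NR5A2 are 8 genes that encode transcription factors of hepatocyte identity. They were taken by name from a list and matched to their Ensembl identifiers among the 60664 genes of the count table. The list was written with earlier results of these data known. All 8 genes had enough counts to be tested. Their mRNA was measured in Huh-7, a hepatocellular carcinoma (HCC) cell line, in 3 lines with 3 libraries each. WT were the parental cells. In the 1-1 KO cells the VTRNA1-1 gene had been removed by CRISPR/Cas9, and in the 1-2 KO cells the VTRNA1-2 gene, also by CRISPR/Cas9. These genes encode vtRNA1-1 and vtRNA1-2, short noncoding vault RNAs, and the study asked what the loss of each does in HCC cells. No agent was given to any line, and all grew in the same serum-containing DMEM F12 to the same confluency. Each knockout was represented by a single line, and the 1-2 KO cells were grown from single-cell colonies after transfection and puromycin selection, so that the loss of a vault RNA and other differences between lines cannot be told apart. RNA was extracted in triplicate per line, and the p-values below therefore measure only the spread between these libraries.

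Hepatocytes keep their identity through a small set of factors that bind each other's genes and the genes of secreted plasma proteins and metabolic enzymes. HNF4A and HNF4G are nuclear receptors of the same subfamily, FOXA1, FOXA2 and FOXA3 are forkhead pioneer factors that open chromatin, CEBPA is a leucine zipper factor of the differentiated state, ONECUT1 (HNF6) is a cut-homeodomain factor of hepatic and biliary development, and NR5A2 (LRH-1) is a nuclear receptor of bile acid and cholesterol metabolism. In HCC, loss of such factors accompanies dedifferentiation.

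Total counts per library were between 32384469 and 41782387. The targeted genes could not be checked in these polyadenylated RNA libraries, in which VTRNA1-1 reads numbered 1 in WT replicate 1 and 0 elsewhere, and VTRNA1-2 reads 0 in all 9 libraries. The study itself assessed the vault RNAs of the cells it sequenced by northern blot. The hepatocyte markers (ALB, AFP, TTR, APOA1, APOB, SERPINA1, TF, FGB, AHSG and GPC3) were present in every line. The summed level of 10 hepatocyte markers, in counts per 1000000 counts of the library (CPM), was between 15828 and 16733 CPM in WT, between 32336 and 33278 CPM in 1-1 KO and between 22506 and 24596 CPM in 1-2 KO. Most of both rises was that of AFP (log2 2.22 and 2.08) and ALB (1.90 and 0.90). By the test described below, all 10 were higher in 1-1 KO (32.5% of all genes), with a median log2 of 0.55. In 1-2 KO, 5 were higher and 3 lower (28.2% and 26.2% of all genes), with a median of 0.09. Markers of other cell types moved too, and their part in the results below was not tested. The summed level of 8 biliary markers was 581 to 624 CPM in WT, 841 to 858 CPM in 1-1 KO and 720 to 816 CPM in 1-2 KO, and none of the 8 was at 0 throughout a line. The largest rise in 1-2 KO was that of SPP1, from 65.2 to 219 CPM. Of the 7 biliary markers tested, 2 were higher and 3 lower there (28.2% and 26.2% of all genes). The summed level of 6 intestinal markers was 983 to 1049 CPM in WT, 477 to 486 CPM in 1-1 KO and 847 to 912 CPM in 1-2 KO, with CDX1 and MUC2 at 3 counts or fewer in every library. Nearly all of this sum was VIL1, at 984 CPM in WT, 445 CPM in 1-1 KO and 840 CPM in 1-2 KO. In 1-1 KO, CDX2 (log2 3.28) and, at low counts, GUCA2A (0.77) rose, while LGR5 (-0.55) fell with VIL1. The 6 stromal markers summed to 186 to 198 CPM in WT, 279 to 293 CPM in 1-1 KO and 121 to 130 CPM in 1-2 KO. The largest part of this sum was LUM, which fell in 1-2 KO from 157 to 62.1 CPM (log2 -1.34), while the other 4 stromal markers tested (COL1A1, COL1A2, ACTA2 and PDGFRB) were higher there. The 5 endothelial markers summed to 7.42 to 8.04 CPM in WT, 6.43 to 7.22 CPM in 1-1 KO and 0.831 to 1.10 CPM in 1-2 KO, nearly all of it PECAM1 (log2 -3.17 in 1-2 KO), with the defining receptor KDR at 0 counts in all 9 libraries. The 5 blood cell markers summed to 115 CPM in WT, 101 to 107 CPM in 1-1 KO and 21.5 to 22.4 CPM in 1-2 KO, with HBB at 0. The fall in 1-2 KO was that of LYZ (log2 -2.56), while PTPRC (2.65) and CD14 (0.41), at low levels, were higher there. In bulk RNA such as this, fewer cells expressing a gene and less of its RNA per cell cannot be told apart.

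Sequences before annotated start sites are given for genes whose levels differed most in direction or whose promoter use cannot be seen in the counts. Which of these starts were used in the 3 lines was not measured. RefSeq start sites were found for 6 of the 8 genes (not for HNF4G and FOXA2) in 8 windows of 250 bases before a start, on GRCh38.p14. HNF4A has alternative promoters. The upstream promoter, P2, is known for its use in fetal liver, pancreas and gut, and the downstream promoter, P1, lies 45540 bases further along and is the main promoter of adult liver. Both are on the plus strand of chromosome 20, and a count per gene adds their transcripts together. Capitals mark matches, on either strand, to short motifs. The letters searched were ATTGAT for the ONECUT factors, TGTTTNC for the FOXA factors, AGATAA for the GATA factors and TATAAA for the TATA box. The windows run 5′ to 3′ on the strand of the gene.
HNF4A P2, chr20:44355449-44355698, plus strand: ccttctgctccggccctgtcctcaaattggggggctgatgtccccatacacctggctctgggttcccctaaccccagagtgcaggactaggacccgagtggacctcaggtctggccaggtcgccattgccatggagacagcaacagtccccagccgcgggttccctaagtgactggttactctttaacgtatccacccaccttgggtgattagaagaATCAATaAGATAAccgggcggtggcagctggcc
HNF4A P1, chr20:44400989-44401238, plus strand: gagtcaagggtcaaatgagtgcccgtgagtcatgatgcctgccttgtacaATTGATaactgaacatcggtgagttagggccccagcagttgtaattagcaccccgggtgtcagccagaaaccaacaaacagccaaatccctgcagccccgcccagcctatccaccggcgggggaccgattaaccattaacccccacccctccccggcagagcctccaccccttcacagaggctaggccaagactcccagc
FOXA1, chr14:37595250-37595499, minus strand: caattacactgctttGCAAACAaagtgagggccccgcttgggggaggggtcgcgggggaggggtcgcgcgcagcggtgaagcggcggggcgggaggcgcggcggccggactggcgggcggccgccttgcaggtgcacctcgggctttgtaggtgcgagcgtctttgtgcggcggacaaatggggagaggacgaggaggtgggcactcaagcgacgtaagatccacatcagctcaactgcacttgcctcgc
FOXA3, chr19:45864076-45864325, plus strand: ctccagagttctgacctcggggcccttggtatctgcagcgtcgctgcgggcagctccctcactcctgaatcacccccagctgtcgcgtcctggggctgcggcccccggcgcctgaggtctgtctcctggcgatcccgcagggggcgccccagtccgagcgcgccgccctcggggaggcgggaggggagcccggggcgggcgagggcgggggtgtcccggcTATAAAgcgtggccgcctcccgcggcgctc
NR5A2, downstream start, chr1:200042341-200042590, plus strand: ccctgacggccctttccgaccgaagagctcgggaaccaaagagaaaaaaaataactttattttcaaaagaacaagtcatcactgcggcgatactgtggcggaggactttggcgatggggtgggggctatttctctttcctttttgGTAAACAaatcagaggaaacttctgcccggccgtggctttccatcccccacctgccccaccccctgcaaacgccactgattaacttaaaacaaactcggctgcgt

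The P2 window held an ONECUT match 33 bases and a GATA match 26 bases before the start, whereas the P1 window held an ONECUT match 200 bases before its start. The FOXA1 window held a FOXA match 235 bases before the start. The FOXA3 window held a TATA box 30 bases before the start, and the CEBPA window (chr19:33302535-33302784, minus strand) held a TATA box at the same distance. The downstream NR5A2 start, 14881 bases from the upstream one, had a FOXA match 105 bases before it. The window before the upstream start (chr1:200027460-200027709) held GATA matches 237 and 220 bases and a TATA box match, on the opposite strand, 201 bases before it. Among all 35116 promoter windows of this length, 5.58% held the ONECUT letters, 15.5% the FOXA letters, 9.17% the GATA letters and 10.7% the TATA box. No window of these genes held the letters searched for HNF4 (CAAAGTCCA, in 0.325% of all windows, and CAAAGGTCA, in 0.339%), for the C/EBP factors (TTGCNNAA, in 9.05%) or for NR5A2 itself (CAAGGTCA, in 1.14%), and the ONECUT1 window held none of the motifs. These are matches of letters, and binding was not measured.

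The level of each gene per length was first compared within WT, as RPKM (CPM divided by the summed length of a gene's exons in kilobases). CEBPA was the most abundant, at 40.7 ± 2.76 RPKM (SD, n = 3), followed by HNF4A at 25.8 ± 0.749 RPKM and FOXA3 at 24.4 ± 2.33 RPKM, whose ranges overlapped. FOXA2 had 15.0 ± 0.899 RPKM and NR5A2 11.5 ± 0.381 RPKM. ONECUT1 (6.33 ± 0.179 RPKM) and FOXA1 (6.23 ± 0.436 RPKM) overlapped, and HNF4G was lowest at 1.96 ± 0.127 RPKM. Among all 17171 genes with a length, CEBPA stood at percentile 93.4 and HNF4G at percentile 45.6 of the WT level. The place of HNF4A depended on the length used, since its exons together are far longer than its longest transcript: with the latter it had 55.4 RPKM in WT and led the list. In 1-1 KO, FOXA3 (32.0 ± 0.358 RPKM) stood above HNF4A (24.4 ± 0.363 RPKM) without overlap, and FOXA1 (3.78 ± 0.0890 RPKM) and HNF4G (3.59 ± 0.153 RPKM) overlapped. In 1-2 KO, NR5A2 had 17.0 ± 0.595 RPKM and FOXA2 14.2 ± 1.19 RPKM. These places also depended on the length used. With the longest transcripts, NR5A2 (17.5 RPKM) was above FOXA2 (16.1 RPKM) already in WT, and in 1-1 KO FOXA1 had 4.76 and HNF4G 4.10 RPKM, while HNF4A (52.4 RPKM) stayed above FOXA3 (35.3 RPKM).

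Most of the factors differed from WT in both knockouts, and more often upwards. In 1-1 KO, 7 of the 8 were differentially expressed genes (DEGs, adjusted p under 0.05 in edgeR's quasi-likelihood test), 6 higher and 1 lower, while 63.4% of all 17207 tested genes were DEGs (32.5% higher, 30.9% lower). In 1-2 KO, 7 of 8 were DEGs, again 6 higher and 1 lower, while 54.4% of all genes were (28.2% higher, 26.2% lower). Since most tested genes of these lines were DEGs, the counts over the 8 factors are to be read against these shares. On the log2 scale, the median change of the 8 was 0.30 in 1-1 KO and 0.36 in 1-2 KO, beside 0.01 and 0.02 over all tested genes. The 2 comparisons share the WT libraries. HNF4G, CEBPA, ONECUT1 and NR5A2 were higher in both knockouts, FOXA1 and FOXA3 moved in opposite directions, FOXA2 passed the test in 1-1 KO only and HNF4A in 1-2 KO only. No change from WT reached 1 on the log2 scale. Between the knockouts, all 8 were DEGs, 4 higher and 4 lower in 1-2 KO, while 65.3% of all genes were (33.1% higher, 32.2% lower). The 3 libraries of a line lay fully to one side of the 3 WT libraries for 8 of 8 genes in 1-1 KO (68.9% of all genes) and for 7 of 8 in 1-2 KO (58.4% of all genes), and the knockouts lay apart from each other for 7 of 8 (69.8% of all genes).

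**Figure D1:**
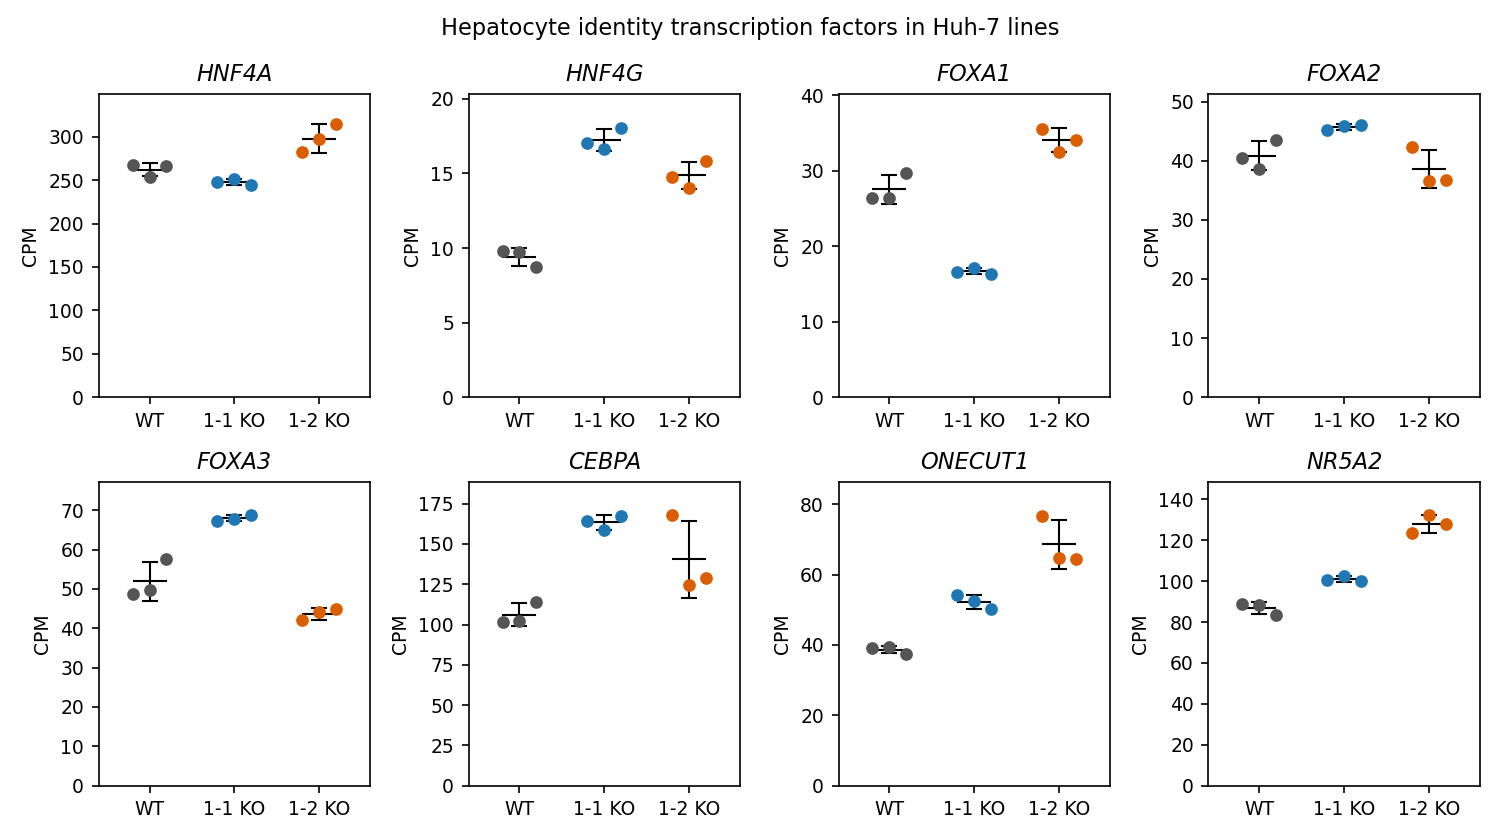
Level of each factor in CPM (vertical axes, starting at 0) in the 9 libraries. Points are libraries, and bars are the mean ± SD of the 3 libraries of a line. HNF4G, CEBPA, ONECUT1 and NR5A2 lie above WT in both knockouts, while FOXA1 is lowest and FOXA3 highest in 1-1 KO.

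HNF4A, whose product is regarded as the central regulator of hepatocyte gene expression, changed little. Its counts were 10639, 9508 and 8393 in the 3 WT libraries, 10504, 10361 and 9976 in 1-1 KO and 11877, 11852 and 12607 in 1-2 KO. Scaled to depth this was 262 ± 7.62 CPM in WT, 248 ± 3.69 CPM in 1-1 KO and 298 ± 16.3 CPM in 1-2 KO (SD, n = 3). All 1-2 KO libraries were above and all 1-1 KO libraries below those of WT. The gene lies on the plus strand of chromosome 20 (44355699 to 44432845, GRCh38). The log2 fold change in 1-1 KO was -0.08 ± 0.041 (SE, edgeR adjusted p = 0.109), with a 95% interval of -0.17 to 0.01, so that a fall of more than 0.17 lay outside the interval. In 1-2 KO it was 0.18 ± 0.041 (edgeR adjusted p = 0.00171), a 1.14-fold rise. The direct comparison gave 0.26 in 1-2 KO relative to 1-1 KO (edgeR adjusted p = 6.03e-05). Without 1-2 KO replicate 1 in the fit, the 1-1 KO value of -0.08 passed the test (edgeR adjusted p = 0.0383). The antisense gene HNF4A-AS1 had at most 12 counts in any library.

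HNF4A was not alone in its neighbourhood. The 50 tested genes nearest to it on chromosome 20 had a median of -0.29 on the log2 scale in 1-1 KO and 0.28 in 1-2 KO, in the same directions as HNF4A. In 1-1 KO, 27 of them were DEGs lower than WT and 6 higher, and in 1-2 KO 3 were lower and 31 higher. Relative to this median, HNF4A stood at 0.21 in 1-1 KO and at -0.10 in 1-2 KO, both opposite in sign to its own change. DNA copy number was not measured, and its part in these values was not tested.

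HNF4G, the paralog of HNF4A that is best known from the intestine and kidney, had the largest rise of the 8 in 1-1 KO. WT libraries had 391, 364 and 275 counts, 1-1 KO libraries 722, 683 and 736, and 1-2 KO libraries 622, 559 and 634. The lines were separate, with 9.42 ± 0.608 CPM in WT, 17.2 ± 0.733 CPM in 1-1 KO and 14.9 ± 0.897 CPM in 1-2 KO. The rise was 1.83-fold in 1-1 KO (log2 0.87 ± 0.071 SE, edgeR adjusted p = 1.06e-07) and 1.58-fold in 1-2 KO (log2 0.66 ± 0.072, edgeR adjusted p = 2.81e-06). The knockouts differed by -0.21 (edgeR adjusted p = 0.0136). This difference no longer passed the test without 1-1 KO replicate 3 (-0.18, edgeR adjusted p = 0.0618) or without 1-2 KO replicate 2 (-0.17, edgeR adjusted p = 0.0629). Its 50 neighbours on chromosome 8 had median log2 fold changes of 0.25 in 1-1 KO and 0.04 in 1-2 KO. For every 100 counts of HNF4A there were 3.59 ± 0.285 of HNF4G in WT, 6.95 ± 0.398 in 1-1 KO and 4.99 ± 0.262 in 1-2 KO, a ratio that does not depend on the scaling between libraries.

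The FOXA genes, whose products open closed chromatin at liver enhancers and can replace each other in part, moved against each other. FOXA1 had 1050, 991 and 938 counts in WT, 702, 704 and 667 in 1-1 KO and 1498, 1294 and 1366 in 1-2 KO. The lines did not overlap, and FOXA1 was lowest in 1-1 KO (16.7 ± 0.393 CPM), intermediate in WT (27.5 ± 1.92 CPM) and highest in 1-2 KO (34.0 ± 1.53 CPM). The log2 fold change was -0.72 ± 0.060 in 1-1 KO (edgeR adjusted p = 1.28e-07) and 0.31 ± 0.058 in 1-2 KO (edgeR adjusted p = 4.05e-04). The direct difference of 1.03 between the knockouts, 2.04-fold, was the largest of the 8 genes (edgeR adjusted p = 2.07e-09). FOXA1 was the only DEG of the 8 that was lower in 1-1 KO, and its 50 neighbours on chromosome 14 had medians of 0.18 in 1-1 KO and -0.04 in 1-2 KO, opposite in sign to FOXA1 itself. TTC6 overlaps FOXA1 on the opposite strand, with 52 to 65 counts in WT, 49 to 60 in 1-1 KO and 101 to 120 in 1-2 KO, and how the counting treated strand is not stated.

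FOXA3, the forkhead factor linked to glucose metabolism in adult liver, showed the reverse order. Counts were 1934, 1863 and 1819 in WT, 2851, 2782 and 2807 in 1-1 KO and 1768, 1760 and 1794 in 1-2 KO. At 67.9 ± 0.762 CPM all 1-1 KO libraries stood above WT (52.0 ± 4.95 CPM), and at 43.6 ± 1.48 CPM all 1-2 KO libraries stood below it. The log2 fold change was 0.39 ± 0.056 in 1-1 KO (edgeR adjusted p = 2.98e-05) and -0.25 ± 0.057 in 1-2 KO (edgeR adjusted p = 0.00189), and the knockouts differed by -0.64 (edgeR adjusted p = 1.74e-07). FOXA3 was the only DEG of the 8 that was lower in 1-2 KO. Its 50 neighbours on chromosome 19 had medians of 0.25 and 0.17.

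FOXA2, the family member needed for bile acid and lipid homeostasis, varied little. It had 1612, 1448 and 1371 counts in WT, 1912, 1889 and 1876 in 1-1 KO and 1782, 1457 and 1475 in 1-2 KO. WT libraries averaged 40.9 ± 2.44 CPM, and the 1-1 KO libraries (45.7 ± 0.448 CPM) were all higher, whereas those of 1-2 KO (38.6 ± 3.24 CPM) overlapped WT. The 1-1 KO change was 0.16 ± 0.059 on the log2 scale (edgeR adjusted p = 0.0267). It lost the call without WT replicate 1 (0.15), without WT replicate 2 (0.12), and without each 1-1 KO library in turn (0.17, 0.16 and 0.16), with edgeR adjusted p between 0.0527 and 0.126. The 1-2 KO change was -0.08 (edgeR adjusted p = 0.265, 95% interval -0.21 to 0.05), and without 1-2 KO replicate 1 it was -0.15 and passed the test (edgeR adjusted p = 0.0206). The knockouts differed by -0.24 (edgeR adjusted p = 0.00218). The neighbouring genes of FOXA2 on chromosome 20 had a median of 0.18 in 1-1 KO, and FOXA2 relative to them was -0.02, a reversed sign. LINC00261, a long noncoding gene next to FOXA2, had 328 ± 5.68 CPM in WT, 349 ± 4.57 CPM in 1-1 KO (log2 0.09, edgeR adjusted p = 0.0317) and 376 ± 11.9 CPM in 1-2 KO (log2 0.20, edgeR adjusted p = 2.23e-04).

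The make-up of FOXA mRNA shifted. The 3 genes together had 120 ± 9.11 CPM in WT, 130 ± 1.05 CPM in 1-1 KO and 116 ± 3.32 CPM in 1-2 KO, and both knockouts overlapped the WT range of 115 to 131 CPM. Per length, the sum was 45.7 ± 3.58 RPKM in WT, 52.5 ± 0.459 RPKM in 1-1 KO, above all WT libraries, and 42.4 ± 0.881 RPKM in 1-2 KO, below all WT libraries. The last margin was small, with at most 43.4 RPKM in 1-2 KO and at least 43.6 RPKM in WT. With the longest transcripts as lengths, the ranges of 1-2 KO and WT overlapped. Of the per-length sum over all exons, FOXA1 made up 13.6% ± 0.117 in WT, 7.19% ± 0.193 in 1-1 KO and 18.2% ± 0.449 in 1-2 KO. The share of FOXA3 was 53.4% ± 1.09 in WT, 60.8% ± 0.294 in 1-1 KO and 48.4% ± 2.50 in 1-2 KO. FOXA2 kept about the same share, at 32.9% ± 1.03, 32.0% ± 0.117 and 33.4% ± 2.15, with both knockouts overlapping WT. In every WT library there were between 1.84 and 1.94 counts of FOXA3 for each count of FOXA1, against 3.95 to 4.21 in 1-1 KO and 1.18 to 1.36 in 1-2 KO, so that the 3 lines were fully separated by this ratio. No test was run on these ratios.

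**Figure D2:**
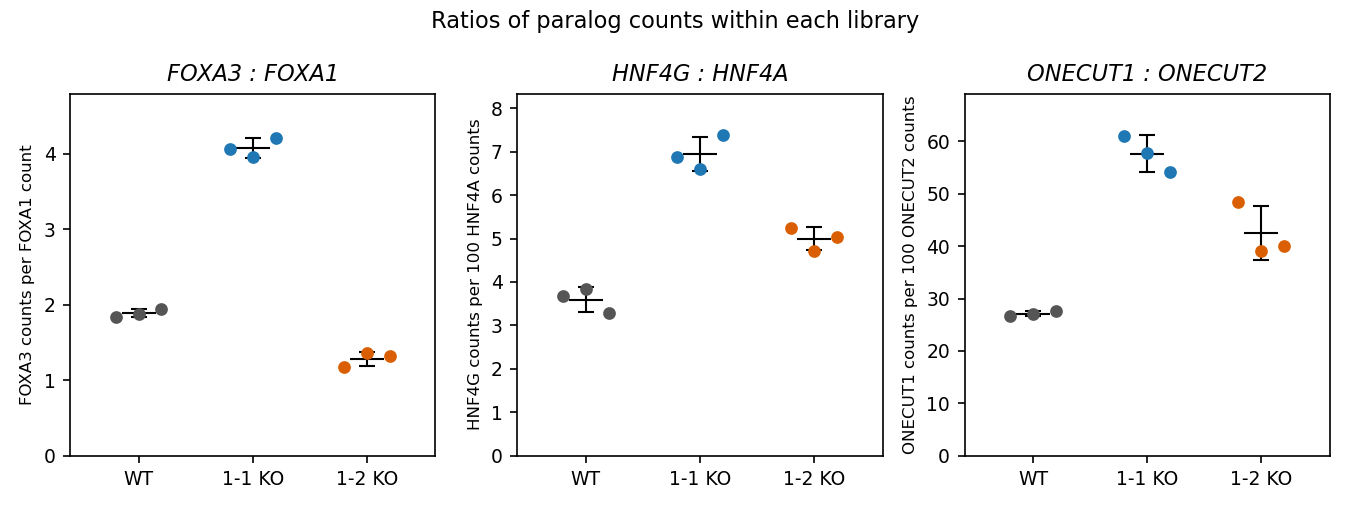
Ratios of the counts of paralogs within each library (vertical axes, starting at 0), with points for libraries and bars for the mean ± SD of 3 libraries. All 3 ratios are higher in 1-1 KO than in WT in every library, and that of FOXA3 to FOXA1 is lower than WT in 1-2 KO.

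CEBPA, which restrains proliferation and drives genes of the mature hepatocyte, rose in both knockouts. WT libraries held 4049, 3822 and 3605 counts, 1-1 KO libraries 6944, 6519 and 6831, and 1-2 KO libraries 7063, 4961 and 5171. The first 1-2 KO library stood apart, at 168 CPM against 125 and 129 CPM in the other 2, but all 3 were above the WT libraries, which reached 114 CPM. Over all genes with enough counts, this library also differed from the other 2 of its line more than they did from each other. The mean level of CEBPA was 106 ± 7.19 CPM in WT, 163 ± 4.51 CPM in 1-1 KO and 140 ± 23.7 CPM in 1-2 KO. The log2 fold change was 0.63 ± 0.087 in 1-1 KO (edgeR adjusted p = 2.17e-05) and 0.41 ± 0.087 in 1-2 KO (edgeR adjusted p = 0.00119). Without 1-2 KO replicate 1, the 1-2 KO change was 0.26 (edgeR adjusted p = 3.36e-04). The difference between the knockouts, -0.22 (edgeR adjusted p = 0.0382), came with overlapping ranges. It was -0.36 without 1-2 KO replicate 1, and it lost the call, with edgeR adjusted p between 0.0512 and 0.185, without WT replicate 2, each of the 3 1-1 KO libraries, 1-2 KO replicate 2 or 1-2 KO replicate 3, with values from -0.24 to -0.14. CEBPA-DT, the divergent noncoding transcript beside CEBPA, had 5.03 ± 1.10 CPM in WT, 5.55 ± 0.0804 CPM in 1-1 KO and 6.54 ± 1.85 CPM in 1-2 KO, and passed the test in neither knockout (edgeR adjusted p = 0.477 and 0.0763). In 1-2 KO it too was highest in replicate 1, at 8.62 CPM against 5.90 and 5.09 CPM.

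ONECUT1, which acts upstream of HNF4A in liver development, had the largest rise of the 8 in 1-2 KO. The counts were 1552, 1483 and 1181 in WT, 2292, 2158 and 2043 in 1-1 KO and 3223, 2578 and 2585 in 1-2 KO. The lines formed 3 separate steps, at 38.7 ± 1.09 CPM in WT, 52.2 ± 2.05 CPM in 1-1 KO and 68.6 ± 6.87 CPM in 1-2 KO, with replicate 1 again the highest 1-2 KO library. The rise was 1.35-fold in 1-1 KO (log2 0.43 ± 0.062, edgeR adjusted p = 2.86e-05) and 1.77-fold in 1-2 KO (log2 0.83 ± 0.062, edgeR adjusted p = 5.17e-08), and the knockouts differed by 0.39 (edgeR adjusted p = 4.83e-05). Its 50 neighbours on chromosome 15 had medians of -0.10 and -0.07. The paralog ONECUT2 went the other way in 1-1 KO, from 143 ± 6.22 CPM in WT to 90.7 ± 1.90 CPM (log2 -0.66, edgeR adjusted p = 3.36e-09), and was at 162 ± 3.62 CPM in 1-2 KO (log2 0.18, edgeR adjusted p = 0.00112). ONECUT1 thus had 27.1 ± 0.519 counts for every 100 of ONECUT2 in WT, 57.7 ± 3.46 in 1-1 KO and 42.5 ± 5.12 in 1-2 KO.

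NR5A2, which binds DNA as a monomer and controls bile acid synthesis genes, rose in both knockouts with little spread. It had 3529, 3307 and 2633 counts in WT, 4255, 4224 and 4075 in 1-1 KO and 5204, 5277 and 5119 in 1-2 KO. No lines overlapped, at 86.8 ± 2.87 CPM in WT, 101 ± 1.47 CPM in 1-1 KO and 128 ± 4.49 CPM in 1-2 KO. The log2 fold change was 0.22 ± 0.038 in 1-1 KO (edgeR adjusted p = 1.58e-04) and 0.56 ± 0.038 in 1-2 KO (edgeR adjusted p = 1.79e-08), and the knockouts differed by 0.34 (edgeR adjusted p = 1.78e-06). The medians of its 50 neighbours on chromosome 1 were -0.12 and 0.04.

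**Figure D3:**
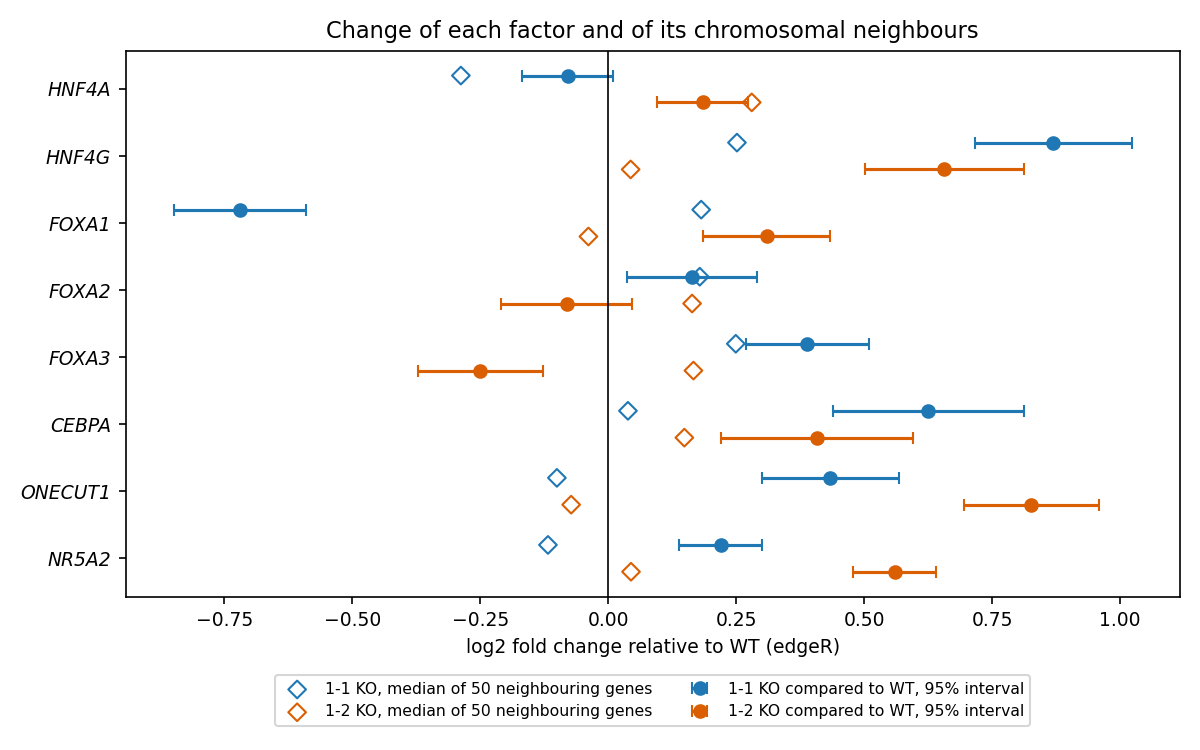
Log2 fold change relative to WT of each factor (filled points, with 95% intervals from edgeR) and median log2 fold change of its 50 nearest tested genes (open diamonds), in 1-1 KO (blue) and 1-2 KO (orange). The diamonds of HNF4A lie at -0.29 and 0.28, on the same side of 0 as HNF4A, whereas FOXA1 lies opposite to its neighbours in both knockouts.

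The genes whose pattern over the 9 libraries was most like that of each factor were found by the root mean square difference of log2 CPM, after centring, among 13659 protein-coding genes. HNF4A was closest to NOMO1 (0.0199) and to CPNE1 (0.0232), the latter on the same chromosome, FOXA2 to VPS4A (0.0321) and AP1M1 (0.0373), and NR5A2 to SLC39A14 (0.0427) and JADE1 (0.0454). FOXA3 was closest to NETO2 (0.0489) and ATXN1L (0.0514), CEBPA to CCDC142 (0.0518) and PIAS4 (0.0595), and FOXA1 to ROBO1 (0.0565) and COPS6 (0.0566). HNF4G was closest to NFKBIZ (0.0712) and PHGDH (0.0716), and ONECUT1 to TMCO6 (0.0732) and HERPUD1 (0.0745). The factors' own spread over the libraries, on the same scale, ran from 0.118 for HNF4A to 0.434 for FOXA1. The differences are therefore not comparable between factors. No other liver factor was among the 2 closest genes of any member. The closest liver factor to FOXA1 was ONECUT2 (0.122), and to ONECUT1 it was NR5A2 (0.146).

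The other liver-enriched transcription factors changed without a common direction. Of 29 listed, 28 could be tested, and 11 were higher and 8 lower in 1-1 KO (67.9% changed, against 63.4% of all genes). Their median was 0.06 on the log2 scale. In 1-2 KO, 12 were higher and 10 lower (78.6% changed, against 54.4%), and the median was -0.01. In 1-1 KO the smallest adjusted p belonged to ONECUT2 (above), HLF (log2 -0.95, edgeR adjusted p = 1.30e-08), NR1H4, the bile acid receptor FXR (-0.57, edgeR adjusted p = 6.28e-08), and ZHX2, a repressor of fetal liver genes (0.68, edgeR adjusted p = 7.59e-08). In 1-2 KO they belonged to NR1H4 (-1.54, edgeR adjusted p = 4.03e-12), XBP1, a factor of the unfolded protein response (-0.64, edgeR adjusted p = 8.19e-09), HLF (-0.59, edgeR adjusted p = 1.85e-06) and DBP, a circadian factor (0.93, edgeR adjusted p = 4.14e-06). NR1H4 fell from 62.8 ± 2.75 CPM in WT to 42.4 ± 0.440 CPM in 1-1 KO and 21.5 ± 0.751 CPM in 1-2 KO. Between the knockouts, 11 were higher and 16 lower in 1-2 KO (33.1% and 32.2% of all genes).

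**Figure D4:**
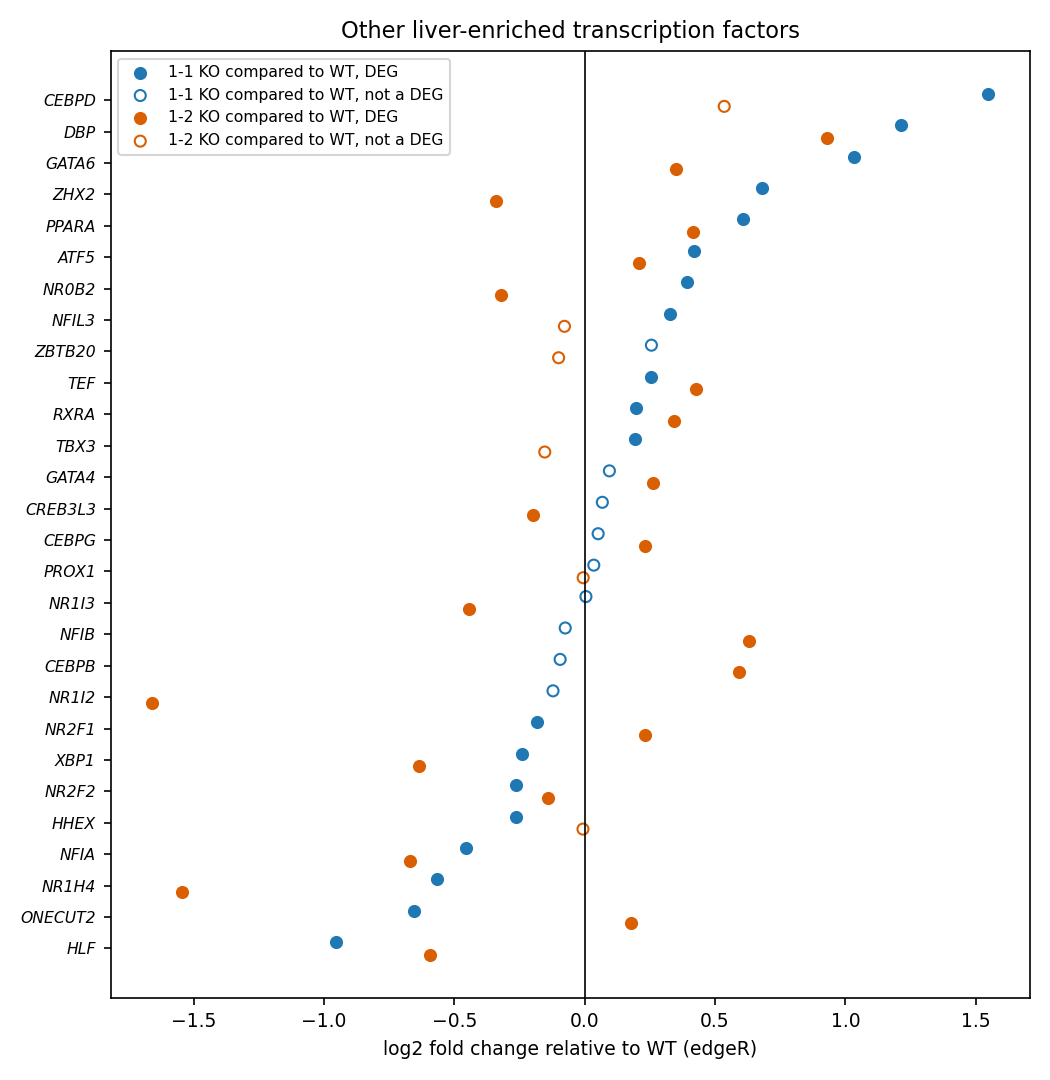
Log2 fold change relative to WT (edgeR) of the 28 other liver-enriched transcription factors tested, in 1-1 KO (blue) and 1-2 KO (orange), ordered by the value in 1-1 KO. Filled points are DEGs (11 higher and 8 lower in 1-1 KO, 12 higher and 10 lower in 1-2 KO) and open points are not.

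All 10 listed coregulators, the proteins through which such factors act on chromatin and polymerase, could be tested. Of these, 6 were higher and 1 lower in 1-1 KO (70.0% changed, near the 63.4% of all genes), and 6 were higher and 2 lower in 1-2 KO (80.0%, against 54.4%). PPARGC1A (PGC-1α), a coactivator of HNF4A, had 2, 6 and 5 counts in WT, 27, 20 and 20 in 1-1 KO and 10, 6 and 10 in 1-2 KO. It rose in 1-1 KO (log2 2.14 ± 0.38, edgeR adjusted p = 2.17e-04), from counts too low for a precise fold, and did not pass the test in 1-2 KO (0.82, edgeR adjusted p = 0.152). The corepressor gene TLE3 fell in 1-1 KO (-0.41) and rose in 1-2 KO (0.52), while its paralog TLE1 rose in both (0.43 and 0.16). The acetyltransferase genes EP300 (0.12 and 0.21) and CREBBP (0.10 and 0.48) were DEGs in both. NCOA2 rose in 1-1 KO (0.26) and fell in 1-2 KO (-0.31), NRIP1 rose in 1-1 KO (0.34), NCOA1 and PPARGC1B rose in 1-2 KO (0.60 and 0.56), and NCOA3 fell in 1-2 KO (-0.19).

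Genes that textbooks assign to these factors as targets were mostly higher in 1-1 KO and divided in 1-2 KO. Of 46 listed, 38 could be tested, and F9, CYP7A1, CYP8B1 and SLC10A1 had 3 counts or fewer in every library. In 1-1 KO, 28 of the 38 were higher and 4 lower, against 32.5% and 30.9% of all genes, and their median was 0.44 on the log2 scale. In 1-2 KO, 17 were higher and 15 lower, against 28.2% and 26.2% of all genes, and the median was 0.10. AFP, the fetal counterpart of albumin, rose in both (2.22 and 2.08, edgeR adjusted p = 5.93e-14 and 1.08e-13), as did FABP1, a fatty acid carrier (1.64 and 1.31). ALB rose in both (1.90 and 0.90), and TTR rose in 1-1 KO (1.59) and fell in 1-2 KO (-0.64). The fibrinogen chain genes FGA and FGG likewise rose in 1-1 KO (0.54 and 0.46) and fell in 1-2 KO (-0.97 and -0.93). Between the knockouts, 11 targets were higher and 23 lower in 1-2 KO (33.1% and 32.2% of all genes), with a median of -0.33. All hepatocyte markers named above except GPC3 are also in this list of targets, so the counts of the markers and of the targets are not separate results. The list was written with earlier results of these data known, and occupancy of the genes by the factors was not measured.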

How the data were processed

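The study sequenced polyadenylated RNA of the 3 Huh-7 lines (TruSeq stranded libraries, paired 2 × 50 bp). According to the study's methods, the authors aligned reads with STAR to hg38 (annotation version 104) and counted them per gene with featureCounts. The deposited values are these raw read counts, without normalization or filter. Whether counting used strand is not given in the sources used here. Gene positions and exon lengths came from GENCODE 44, in which 60463 of 60664 identifiers were found. The 201 others held 0.0192% of the counts.

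Counts were tested with edgeR 4.0.16 in R 4.3.3 (filterByExpr with a minimum count of 10, TMM, quasi-likelihood test, 1 fit of all 9 libraries with a term per line), with Benjamini-Hochberg adjustment over 17207 genes and a threshold of 0.05. CPM used the TMM-scaled library sizes, and RPKM the summed length of a gene's exons. log2 CPM used a prior count of 2. Tables were made with pandas 2.3.3 and numpy 2.4.6 (Python 3.11.15), plots with matplotlib 3.10.9. The fit was tested on simulated data. Alternatives were DESeq2 1.42.0 (Wald test), its size factors in edgeR, library size alone, other count filters, only the 2 groups compared, a replicate block, an adjusted p under 0.01, each library left out, neighbouring genes subtracted, and transcript length. Promoter windows came from RefSeq. Libraries with the same number did not deviate together (correlations from -0.187 to 0.0474), so the numbers were not taken as pairs. Between libraries of different lines and numbers, correlations ran from -0.142 to 0.237, highest for WT replicate 3 with 1-2 KO replicate 1. WT replicate 3 was the highest WT library for FOXA1, FOXA2, FOXA3 and CEBPA. Libraries of a line differed by more than counting error (chi-square per degree of freedom 2.07 to 16.1).

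The genes and lists were chosen with earlier results of these data known. Named were all 8 factors, from each list the 4 genes of smallest adjusted p in either knockout, all genes of the coregulator and noncoding lists, the 2 genes most like each factor, and genes on which a sentence turned. Some listed genes are not reported here and were left out of the counts of their list.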

Additional observations from a re-analysis of the deposited data

How the results depend on the processing

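The number of factors passing the test was 7, 7 and 8 in the 3 comparisons. It ranged from 6 to 8, 7 to 8 and 6 to 8 when each library was left out. At an edgeR adjusted p under 0.01 it was 6, 7 and 6. The fit with the replicate block changed no call. DESeq2's size factors, no filter, and at least 10 counts in every library changed none either. In 1-1 KO against WT, HNF4A passed the test in a fit of only the 2 groups compared (-0.078, edgeR adjusted p = 0.0414), and its value was -0.11 to -0.067 over the libraries left out. The CEBPA difference between the knockouts lost the call with scaling by library size alone (-0.21, edgeR adjusted p = 0.0607) and with DESeq2 (-0.22, adjusted p = 0.128), and lay between -0.36 and -0.14 over the libraries left out. The corresponding range was -0.26 to -0.17 for HNF4G, 0.12 to 0.21 for FOXA2 in 1-1 KO and -0.15 to -0.044 for FOXA2 in 1-2 KO. After subtraction of the neighbours' median, a value without a test, 4 values changed sign: HNF4A in 1-1 KO against WT (0.21), which had not passed the test, in 1-2 KO against WT (-0.10) and against 1-1 KO (-0.20), and FOXA2 in 1-1 KO (-0.016). Others moved by more than the spread of the libraries. In 1-1 KO these were HNF4G (0.62), FOXA1 (-0.90), FOXA3 (0.14), ONECUT1 (0.53) and NR5A2 (0.34), in 1-2 KO FOXA2 (-0.25), FOXA3 (-0.42), CEBPA (0.26) and NR5A2 (0.52), and between the knockouts HNF4G (-0.0027), FOXA1 (1.20), FOXA2 (-0.16), ONECUT1 (0.26) and NR5A2 (0.27). The cause of these changes was not tested. With the longest transcript as length, WT levels were 55.4 RPKM for HNF4A, 2.24 for HNF4G, 7.84 for FOXA1, 16.1 for FOXA2, 27.0 for FOXA3, 8.88 for ONECUT1 and 17.5 for NR5A2. Between the scales, 11 of 16 closest genes were shared. Depth did not limit the factors, each with at least 275 counts in every library.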

Other observations

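CDX2, a homeobox factor of the intestinal epithelium, rose in both knockouts. It had 74, 66 and 77 counts in WT, 803, 834 and 776 in 1-1 KO and 819, 652 and 680 in 1-2 KO. All knockout libraries lay far above WT, at 2.02 ± 0.368 CPM in WT, 19.4 ± 0.739 CPM in 1-1 KO and 17.6 ± 1.63 CPM in 1-2 KO, with log2 fold changes of 3.28 and 3.14 (edgeR adjusted p = 1.02e-11 and 1.93e-11). VIL1, a microvillar protein gene of intestine and liver, fell in both (-1.15 and -0.23), and LGR5 fell in 1-1 KO (-0.55) and was at 0.11 in 1-2 KO (edgeR adjusted p = 0.180). Of the 8 biliary markers, 7 could be tested, and 6 were higher and 1 lower in 1-1 KO (32.5% and 30.9% of all genes). In 1-2 KO, 2 were higher and 3 lower (28.2% and 26.2% of all genes). KRT19 rose in both (0.39 and 0.33), and SOX4 rose in 1-1 KO (0.50) and fell in 1-2 KO (-0.20). CFTR rose in 1-1 KO (1.05) and was at 0.12 in 1-2 KO (edgeR adjusted p = 0.486). EPCAM rose in 1-1 KO (1.55) and was at -0.03 in 1-2 KO (edgeR adjusted p = 0.506), SPP1 rose in both (0.24 and 1.75), and SOX9 rose in 1-1 KO (0.36) and fell in 1-2 KO (-0.51). KRT7 fell in both, from 11 to 19 counts in WT to 1 count in every 1-1 KO library and 3 to 6 counts in 1-2 KO. These genes were named after their values were seen.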
